A study of Mus musculus with 4 samples.

Results

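The contractile genes examined were 46 genes that encode the troponins, myosins, actins, alpha-actinins, tropomyosins, calponins, transgelins, cysteine and glycine-rich proteins and calcium handling proteins of striated muscle, smooth muscle and nonmuscle cells. They were chosen by name, as the rows of the gene count table whose Ensembl identifier carries 1 of these symbols, and all 46 were found among 55487 identifiers. By their known use, 21 were assigned to striated muscle, 9 to smooth muscle, 13 to nonmuscle cells and the tropomyosins, and 3 to calcium handling. Of the 46, 36 had enough counts to be tested, among 14932 genes in all; 25 of them passed this filter on low counts on both days, 6 through day 2 alone and 5 through day 4 alone.

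RNA-seq was performed on ES-E14TG2a cells, a line of mouse embryonic stem cells (mESCs), at day 2 (d2) and day 4 (d4) of cardiogenic differentiation. There were 2 biological replicates at each time. The paper calls this parental line wild type (WT) beside its own edited clones. Before d2, cells grew as embryoid bodies for 48 h in serum-free medium without Activin A, BMP4 or VEGF. Cells of d4 were, after that, dissociated and left to reaggregate during 40 h with human Activin A at 8 ng/ml, human BMP4 at 0.5 ng/ml and human VEGF at 5 ng/ml. Time, reaggregation and the added factors cannot be told apart, the cultures were not sorted by cell type, and all libraries came from a single cell line. The libraries held 11397439 to 16851485 counts, of which the contractile genes took 0.271% to 0.326% at d2 and 0.494% to 0.536% at d4.

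In striated muscle, bundles of myosin pull on filaments of actin that are anchored at Z-discs by alpha-actinin and spanned by titin, and the trimer of troponin T, I and C on tropomyosin lets calcium switch the contraction on. Smooth muscle has no troponin, and its contraction is started when myosin light chain kinase phosphorylates the regulatory light chain of myosin. Nonmuscle cells use related myosins, alpha-actinins, calponins and tropomyosins for shape, adhesion and division. Most of these proteins come as isoforms from separate genes, and the embryonic heart uses several isoforms that later belong to skeletal or smooth muscle.

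From d2 to d4 the striated genes went in both directions. The troponin genes Tnnt2, Tnnt3, Tnni1 and Tnnc1, the atrial and embryonic light chain gene Myl4 and the ryanodine receptor gene Ryr2 were higher at d4, whereas the cardiac myosin heavy chain gene Myh6, the striated actin genes Actc1 and Acta1, the Z-disc gene Actn2 and the titin gene Ttn were lower. Smooth muscle genes were also split, with Acta2, Csrp1 and Csrp2 higher and Myl9 and Cnn1 lower. Among the more abundant nonmuscle and tropomyosin genes Tagln2, Cnn2, Tpm1 and Tpm4 were higher and Myh14 was lower, and the other 8 did not pass the test.

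In a quasi-likelihood test by edgeR, with p-values adjusted by Benjamini-Hochberg over all genes tested, 13 of the 36 were higher at d4 and 8 were lower at an adjusted p under 0.01, and 15 did not pass. Among all genes tested, 24.3% were called, 12.9% higher and 11.3% lower. The median log2 fold change of the 36 was 0.58, also with Tnnt3, which had no count at d2, set at its lower bound, against -0.03 over all genes tested. In 23 of the 36, both d4 libraries lay above both d2 libraries in CPM (counts divided by library size, scaled with TMM factors), and in 10 both lay below; over all genes tested these shares were 35.8% and 35.2%. Members that passed the filter through a single day were tested only because of their level on that day, so these counts only describe the list. In bulk RNA, fewer cells of a type and less RNA per cell cannot be told apart.

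**Figure D1:**
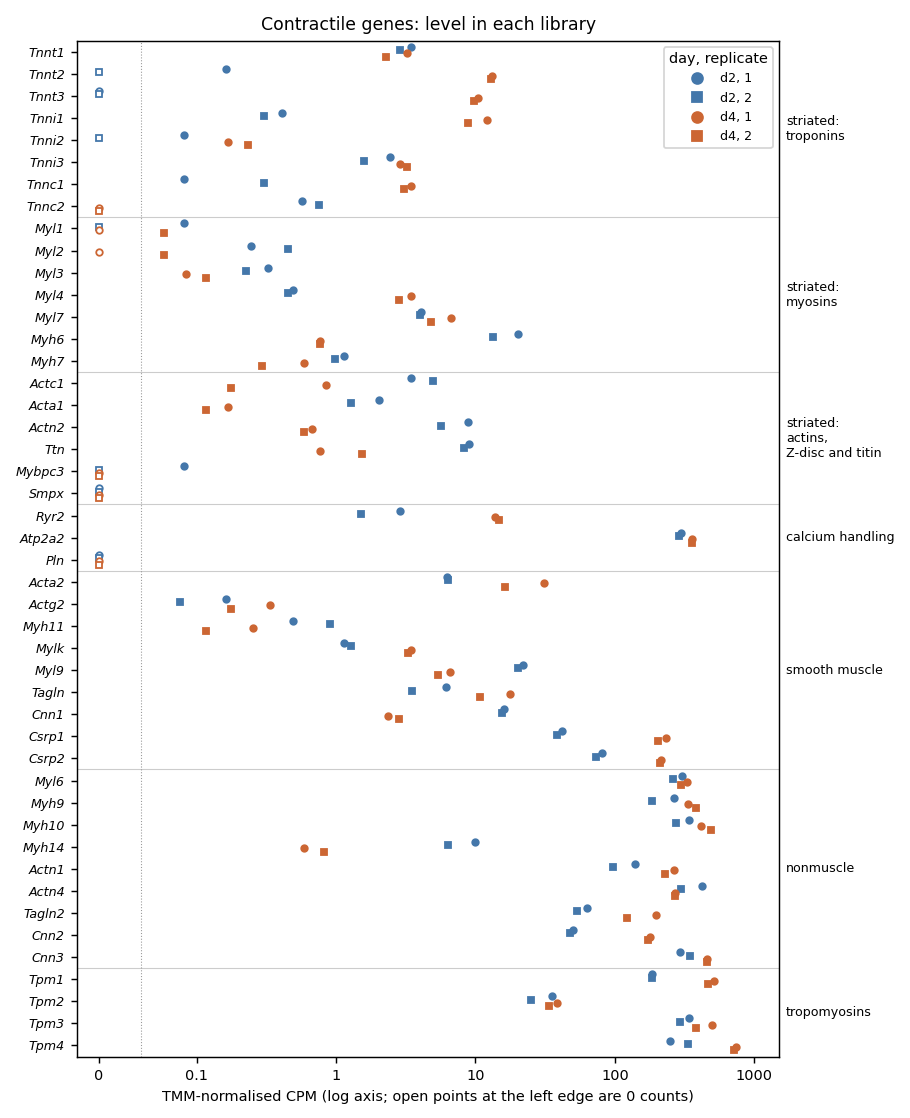
Level of each of the 46 contractile genes in the 4 libraries, as TMM-normalised CPM on a log axis, grouped by class; blue is d2, orange is d4, circles and squares are replicates 1 and 2, and open points at the left edge are 0 counts. Troponin genes Tnnt2, Tnnt3, Tnni1 and Tnnc1 sit far right of their d2 points at d4, Myh6, Actn2, Acta1, Actc1 and Ttn far left, and most nonmuscle genes lie above 100 CPM on both days.

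All calls rest on 2 libraries per day. Leaving out d2 replicate 1 or d2 replicate 2, edgeR called no genes of any kind, and DESeq2 on the same libraries kept only a part of the 21 contractile genes called. Without d4 replicate 1 or d4 replicate 2, edgeR kept all 21 and DESeq2 kept 15 and 16. The direction of the 21 was the same in all of these fits.

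The labels were checked against markers of the cell types that could be present. The 6 pluripotency genes were all lower at d4 (summed 1032 to 1339 CPM at d2 and 28.1 to 31.4 CPM at d4), 5 of 6 early mesoderm genes were higher (2.86 to 3.80 and 759.8 to 898 CPM), and 5 of 6 endothelial cell genes were higher (9.49 to 10.3 and 380.1 to 499.7 CPM). Of 7 noncontractile cardiomyocyte genes, Tbx5 and Smyd1 were higher, but the list summed to 3.87 to 4.66 CPM at d2 and 5.00 to 6.26 CPM at d4. Most of the d2 sum was Hcn4, which had 53 and 44 counts at d2 against 15 and 26 at d4. Hcn4 leaned lower and did not pass by edgeR (log2 fold change -1.44, SE 0.34, adjusted p = 0.0148). Nppa, the atrial natriuretic peptide gene, had 0 counts in all 4 libraries, and Nkx2-5, a defining cardiac transcription factor gene, had 1, 0, 2 and 3. Of 7 noncontractile genes of smooth muscle cells and pericytes, 4 were higher (35.9 to 60.7 and 559 to 644 CPM). The 6 skeletal muscle genes were at 0 to 7 counts in each library, with Myog, Myf6 and Mymk at 0 throughout. The part of any of these cell types in the contractile changes was not tested.

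Promoter sequences were read to show where the best known contractile element lies in these genes. Serum response factor (SRF), with its cofactor myocardin, binds the CArG box of many contractile promoters. RefSeq windows of 300 bases, from 250 before to 50 after the start of a transcript in GRCm38.p6, were at hand for 39 of the 46 genes, and those for Tnnt3, Tnni2, Atp2a2, Actg2, Myh11, Tagln and Csrp2 were not used here. An exact CArG box, whose reverse complement is again a CArG box, stood in 7 of the 39 genes (17.9%) and in 1.81% of 27025 genes with such a window (1.63% of 32851 windows). The 7 are shown because their genes came out differently in the test, each on the strand of its gene with the box in capitals.
Actc1, chr2:114052903-114052932, minus strand: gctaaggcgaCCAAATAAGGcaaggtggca
Acta1, chr8:123894829-123894858, minus strand: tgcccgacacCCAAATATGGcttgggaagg
Myl9, chr2:156775293-156775322, plus strand: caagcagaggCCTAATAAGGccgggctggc
Cnn2, chr10:79988534-79988563, plus strand: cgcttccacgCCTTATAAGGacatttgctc
Myl7, chr11:5898824-5898853, minus strand: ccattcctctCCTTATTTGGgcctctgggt
Myl6, chr10:128493040-128493069, minus strand: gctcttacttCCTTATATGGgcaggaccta
Myl3, chr9:110763583-110763612, plus strand: gagccaatgcCCTTTTATGGccctgtccct
The boxes began 47 (Actc1), 73 (Acta1), 161 (Myl9), 56 (Cnn2), 61 (Myl7), 50 (Myl6) and 85 (Myl3) bases before the annotated start. Of these genes, Actc1, Acta1 and Myl9 were lower at d4, Cnn2 was higher, Myl7 and Myl6 did not pass the test and Myl3 was too low to be tested. An exact box was thus held by genes that moved either way. A match describes these letters in this window and no binding was measured.

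The MCAT element, CATTCC on either strand, was searched in the same windows because it is known from troponin T and muscle actin promoters. It stood in 15 of the 39 genes (38.5%) against 16.6% of all genes and 14.7% of all windows, in 5 of the 11 higher genes with a window and in 3 of the 8 lower ones. The window of Tnnt2 is shown as the promoter of the cardiac troponin T gene, and that of Acta2 as the smooth muscle actin gene that moved against the striated actins.
Tnnt2, chr1:135836297-135836322, plus strand: tcctgctgcaCATTCCtccctccgcg
Acta2, chr19:34255504-34255529, minus strand: gcagaacagaGGAATGcagtggaaga
In Tnnt2 it began 27 bases before the start, and in Acta2 the reverse complement began 146 bases before it. The GATA motif AGATAA, on either strand, stood in 5 of the 39 genes (12.8%) and in 12.7% of all genes (11.2% of all windows). The GATA share of the contractile genes was about that of all genes.

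Troponin genes had the largest fold increase in summed level of the classes, though from a low level. The 8 genes together summed to 6.52 ± 0.95 CPM at d2 and were 6.58-fold higher at d4, with 42.9 ± 3.6 CPM (SD over 2 libraries). Of the 6 tested, 4 were higher and none lower.

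Tnnt2, the cardiac isoform of troponin T, which ties the trimer to tropomyosin, had 2 and 0 counts at d2 against 155 and 219 at d4. The ratio of normalised counts was 165, with an exact 95% counting interval of 45.3 to 1366, and the adjusted p was 0.000205. Tnnt2 was close to absent at d2 and its libraries did not overlap between days. Tnnt3, the fast skeletal isoform of troponin T, had 0 and 0 counts at d2 against 124 and 166 at d4. Against a floor of 3 counts per library it was at least 42.8-fold higher, with an adjusted p of 0.000184. Tnnt1, the slow skeletal isoform, had 42 and 38 counts at d2 against 38 and 39 at d4 and did not pass (log2 fold change -0.21, SE 0.33, adjusted p = 0.652).

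Tnni1, the slow skeletal and embryonic isoform of the inhibitory subunit, had 5 and 4 counts at d2 against 143 and 151 at d4 (log2 fold change 4.85, SE 0.40, adjusted p = 0.000194). All d4 values lay above all d2 values. Tnni3, the cardiac isoform that replaces it in the mature heart, had 30 and 21 counts at d2 against 34 and 55 at d4 and did not pass (log2 fold change 0.60, SE 0.35, adjusted p = 0.220). Part of Tnni3 shares its strand with Dnaaf3, and reads falling on both were left out of the counts. Tnni2, the fast skeletal isoform, was too low to be tested, with 1 count over the d2 libraries and 6 over the d4 libraries (ratio 5.29, counting interval 0.642 to 243).

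Tnnc1, which encodes the calcium-binding subunit of cardiac and slow muscle, had 1 and 4 counts at d2 against 41 and 52 at d4 (log2 fold change 3.99, SE 0.53, adjusted p = 0.00131). The fast skeletal Tnnc2 went the other way, with 7 and 10 counts at d2 against 0 and 0 at d4. It was at least 3.09-fold lower against the same floor, but it had too few counts for the test. For each troponin subunit the leading isoform thus changed between d2 and d4, as the shares below give.

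Striated myosin genes were split, with Myl4 higher, Myh6 lower and Myl7 and Myh7 not past the test. The class summed to 23.1 ± 4.9 CPM at d2 and 10.2 ± 1.9 CPM at d4, of which Myh6 alone made 16.8 ± 4.8 and 0.763 ± 0.0022. Myh6, the alpha cardiac myosin heavy chain gene, had 247 and 177 counts at d2 against 9 and 13 at d4. It was 21.8-fold lower (log2 fold change -4.44, SE 0.36, adjusted p = 0.000182), and the days were far apart. Its neighbour Myh7, the beta cardiac heavy chain gene, had 14 and 13 counts at d2 against 7 and 5 at d4 (log2 fold change -1.31, SE 0.52, adjusted p = 0.0904). Of the 75-base windows of Myh6 and Myh7 transcripts, 13.7% and 13.6% occur in other genes too, many of them in each other, and reads that mapped to both were left out of the counts.

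The light chain gene Myl4, used in the atrium and in embryonic muscle, went up instead, with 6 and 6 counts at d2 against 41 and 48 at d4 (log2 fold change 2.70, SE 0.39, adjusted p = 0.00195). Myl7, the atrial regulatory light chain gene, had 50 and 53 counts at d2 against 79 and 81 at d4, with a log2 fold change of 0.49 (SE 0.30) and an adjusted p of 0.247. Its d4 libraries both lay above its d2 libraries in CPM, by less than the test could call. The skeletal Myl1 and the ventricular Myl2 and Myl3 had at most 6 counts in any library and were not tested.

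Of the actin, Z-disc and titin genes of striated muscle, 4 were tested and all 4 were lower at d4, with a median log2 fold change of -3.31. Actc1, Acta1 and Actn2 passed the filter on low counts through d2 alone, so that they were tested only because of their d2 level. The 6 genes summed to 21.8 ± 2.2 CPM at d2 and 2.43 ± 0.03 CPM at d4. Actc1, the cardiac actin gene, had 42 and 65 counts at d2 against 10 and 3 at d4 (log2 fold change -3.14, SE 0.60, adjusted p = 0.00641). Acta1, the skeletal actin gene, had 25 and 17 counts at d2 against 2 and 2 at d4 (log2 fold change -3.49, SE 0.59, adjusted p = 0.00363). Both actins were low in absolute terms even at d2, at 1.29 to 4.94 CPM.

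Actn2, the alpha-actinin of the Z-disc, had 108 and 75 counts at d2 against 8 and 10 at d4, 11.4-fold lower (SE 0.40 on the log2 scale, adjusted p = 0.000661). Ttn, the gene of the giant spring protein titin, had 109 and 109 counts at d2 against 9 and 26 at d4, 7.24-fold lower (SE 0.38, adjusted p = 0.00133). In both genes the days were clearly separate. Ttn has 116825 bp of annotated exons, and per length it was low even at d2, at 0.076 and 0.071 RPKM (CPM per kb of exon). Mybpc3, the cardiac myosin-binding protein C gene, had 1 count in all libraries together, and Smpx, a small muscle protein gene, had none.

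The 21 striated genes together summed to 51.4 ± 8.1 CPM at d2 and 55.6 ± 5.5 CPM at d4, which differed by less than the spread between libraries. At d2 the sum came mainly from Myh6, Ttn and Actn2, and at d4 from Tnnt2, Tnni1 and Tnnt3. CPM is not corrected for length, which raises the part of a gene as long as Ttn. Of 14 tested, 5 were higher, 5 lower and 4 did not pass, and all 5 of the higher genes passed the filter on low counts through d4 alone and 4 of the 5 lower ones (Myh6, Actc1, Acta1 and Actn2) through d2 alone. The noncontractile cardiomyocyte genes differed among themselves. Nppa and Nkx2-5 were at or near 0 on both days. Smyd1 (2 and 3 counts at d2 against 41 and 41 at d4) and Tbx5 (0 and 0 against 15 and 13) were higher. Hcn4 leaned lower and did not pass. The skeletal muscle factors were near 0 on both days. The part of these cell types in the striated changes was not tested.

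**Figure D2:**
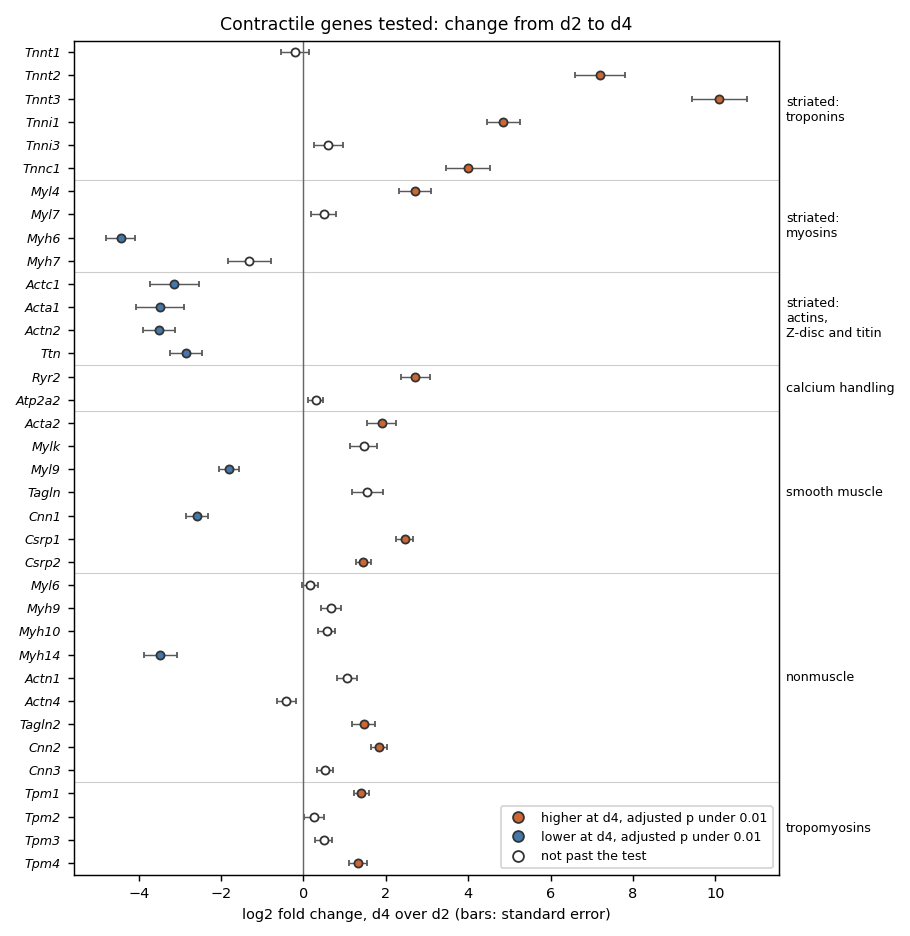
Log2 fold change from d2 to d4 of the 36 contractile genes tested, with standard errors, by class; orange and blue points passed at an adjusted p under 0.01 and white points did not. Troponin genes reach furthest right and the striated actin, Z-disc and titin genes all lie left of 0; Tnnt3, with 0 counts at d2, has a fitted value that depends on the prior count and is at least 42.8-fold.

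Calcium handling genes were uneven. Ryr2, the calcium release channel of the cardiac sarcoplasmic reticulum, had 35 and 20 counts at d2 against 164 and 251 at d4 (log2 fold change 2.71, SE 0.35, adjusted p = 0.00121). It was 6.55-fold higher and its days did not overlap. Atp2a2, the calcium pump that refills this store and serves the endoplasmic reticulum of most cells, had 3628 and 3809 counts at d2 against 4239 and 6097 at d4 (log2 fold change 0.29, SE 0.18, adjusted p = 0.239). Pln, which encodes phospholamban, the inhibitor of this pump, had no count in any library, which allows a level of up to 0.177 to 0.254 CPM by library (3 counts).

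Smooth muscle genes as a class held 167 ± 10 CPM at d2 and 2.88 times as much at d4, 481 ± 37 CPM. Csrp1 went from 40.0 ± 2.3 to 219 ± 19 CPM and Csrp2 from 77.1 ± 4.8 to 211.6 ± 1.2 CPM. The other genes of the class together stayed at about the same level. Csrp1 is not particular to smooth muscle here, as the paper also lists it among the marker genes of an endothelial cluster. Of the 7 noncontractile marker genes of smooth muscle cells and pericytes, Rgs5, Pdgfrb, Notch3 and Myocd were higher. Cspg4, Abcc9 and Kcnj8 were too low to be tested, at 0 to 8 counts in each library. The part of these cell types in the class change was not tested. Of the 7 smooth muscle contractile genes tested, 3 were higher, 2 lower and 2 did not pass, with a median log2 fold change of 1.46. Acta2, the smooth muscle alpha-actin gene that is also used by the early heart, had 76 and 84 counts at d2 against 365 and 277 at d4 (log2 fold change 1.90, SE 0.35, adjusted p = 0.00529; 0.0104 with limma voom). The d4 libraries were unlike each other in CPM, at 30.9 and 16.3, but both lay above the 6.22 and 6.38 of d2.

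Csrp1, a cysteine and glycine-rich LIM protein gene of smooth muscle, had 509 and 505 counts at d2 against 2751 and 3489 at d4 (log2 fold change 2.45, SE 0.20, adjusted p = 0.000194). Its relative Csrp2 had 985 and 971 counts at d2 against 2510 and 3581 at d4 (log2 fold change 1.46, SE 0.19, adjusted p = 0.00121). Both were abundant on either day and both changed by far more than the spread between libraries.

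Tagln, an early smooth muscle actin-binding protein gene, had 75 and 46 counts at d2 against 208 and 182 at d4 and did not pass (log2 fold change 1.55, SE 0.38, adjusted p = 0.0179). It did pass with DESeq2 (adjusted p = 0.00528) and without the filter on low counts (adjusted p = 7.9e-06), and with edgeR without d4 replicate 2 (adjusted p = 5.2e-05), so its call depends on the test. Mylk, the kinase that starts smooth muscle contraction, had 14 and 17 counts at d2 against 41 and 56 at d4 (log2 fold change 1.46, SE 0.33, adjusted p = 0.0122; 0.00107 without the filter and 0.00935 without d4 replicate 2). In both genes all d4 values were above all d2 values.

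Lower at d4 was Myl9, the regulatory light chain of smooth muscle myosin, with 267 and 266 counts at d2 against 78 and 91 at d4 (log2 fold change -1.82, SE 0.25, adjusted p = 0.00145). Cnn1, the smooth muscle calponin, fell further, with 197 and 204 counts at d2 against 28 and 48 at d4, 6.04-fold lower (SE 0.27 on the log2 scale, adjusted p = 0.00045). Both genes were thus higher at d2, when Myocd, the myocardin gene, had 6 and 5 counts. Whether any smooth muscle cells were present at d2 was not tested. Myh11, the smooth muscle myosin heavy chain gene that defines mature smooth muscle, had 6 and 12 counts at d2 against 3 and 2 at d4, and Actg2, the enteric smooth muscle actin gene, had 1 to 4 in each library. Neither was tested.

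Nonmuscle genes were the most abundant class, with 1723 ± 228 CPM at d2 and 2433 ± 23 CPM at d4. Of 9, 2 were higher, 1 lower and 6 did not pass. Tagln2, a transgelin found in many cell types, had 769 and 704 counts at d2 against 2333 and 2087 at d4 (log2 fold change 1.46, SE 0.27, adjusted p = 0.00583). Cnn2, the calponin of nonmuscle cells, had 611 and 630 counts at d2 against 2096 and 2941 at d4 (log2 fold change 1.84, SE 0.19, adjusted p = 0.000462). Both transgelin genes and the nonmuscle calponin Cnn2 thus had higher d4 values, while the smooth muscle calponin Cnn1 was lower.

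Myh14, a nonmuscle myosin II heavy chain gene found mainly in epithelia and nerve, had 121 and 84 counts at d2 against 7 and 14 at d4, 11.1-fold lower (SE 0.40 on the log2 scale, adjusted p = 0.000695). The 2 main nonmuscle heavy chain genes had smaller fold changes. Myh9 had 3239 and 2437 counts at d2 against 3920 and 6505 at d4 (log2 fold change 0.67, SE 0.23, adjusted p = 0.0629). Myh10 had 4135 and 3590 counts at d2 against 4929 and 8283 at d4 (log2 fold change 0.57, SE 0.21, adjusted p = 0.0695). Neither passed, though the d4 CPM of each was above both d2 values.

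Actn1, the alpha-actinin of focal adhesions and stress fibres, had 1709 and 1275 counts at d2 against 3137 and 3863 at d4 (log2 fold change 1.06, SE 0.24, adjusted p = 0.0131; 0.00316 with DESeq2, 5.8e-05 without the filter and 0.00167 without d4 replicate 2). Actn4, the other nonmuscle alpha-actinin, had 5186 and 3916 counts at d2 against 3192 and 4604 at d4 (log2 fold change -0.42, SE 0.23, adjusted p = 0.192). The pair leaned in opposite directions, and neither passed by edgeR.

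Cnn3, the acidic calponin, had 3590 and 4523 counts at d2 against 5442 and 7772 at d4 (log2 fold change 0.53, SE 0.19, adjusted p = 0.0654). Myl6, the essential light chain shared by smooth and nonmuscle myosin, had 3675 and 3407 counts at d2 against 3884 and 5019 at d4 (log2 fold change 0.16, SE 0.19, adjusted p = 0.551). Its CPM values overlapped between days.

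Tropomyosin genes, whose products coat actin filaments in every cell type, summed to more at d4, going from 820.1 ± 20.9 CPM to 1692 ± 134 CPM (2.06-fold). Tpm1, which makes striated, smooth and nonmuscle forms from a single gene, had 2238 and 2443 counts at d2 against 6019 and 7880 at d4 (log2 fold change 1.40, SE 0.18, adjusted p = 0.00126). Tpm4, a mainly nonmuscle tropomyosin gene, had 3019 and 4383 counts at d2 against 8727 and 12151 at d4 (log2 fold change 1.33, SE 0.21, adjusted p = 0.00303). These 2 passed the test with their days well apart.

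Tpm3 had 4157 and 3837 counts at d2 against 5913 and 6530 at d4 (log2 fold change 0.49, SE 0.21, adjusted p = 0.119), and 19.1% of its 75-base windows occur in other genes too, mostly in Tpm3-rs7. Tpm2, the muscle-rich beta tropomyosin gene, had 434 and 332 counts at d2 against 451 and 574 at d4 (log2 fold change 0.24, SE 0.24, adjusted p = 0.463). Counts per gene cannot tell which tropomyosin isoforms were made.

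To compare genes with each other, levels were divided by the length of the union of their annotated exons (RPKM). By this length Tpm4 was the highest of the 46 on both days, at 132 ± 28 RPKM at d2 and 329.9 ± 7.6 at d4, followed by Cnn3 at 105 ± 12 and 151.1 ± 0.8. The highest striated gene was Myl7, at 6.88 ± 0.08 RPKM at d2 and 9.70 ± 2.30 at d4. By the longest transcript Cnn3 had a higher d2 mean than Tpm4. Among smooth muscle genes Csrp2 led at d2, at 35.5 ± 2.2, and Csrp1 at d4, at 112 ± 10, but by the longest transcript Csrp2 led on both days, with 54.7% and 57.5% of the pair at d4. Apart from these LIM protein genes, Acta2 had the highest d4 mean of the striated and smooth muscle genes, at 10.7 ± 4.7 RPKM. In d4 replicate 2, however, Myl7 (8.08 RPKM) was above Acta2 (7.42 RPKM). All nonmuscle and tropomyosin genes except Myh14 had a higher d4 mean than Acta2.

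Shares of each isoform within its family, per length, showed the change in make-up. Of the 4 muscle actin genes, Acta2 held 44.3% and 42.4% at d2 but 94.3% and 96.1% at d4, while Actc1 went from 33.2% and 44.6% to 3.51% and 1.41%. Acta1 went from 20.8% and 12.3% to 0.739% and 0.992%. Cytoplasmic actins were not among the genes compared. The muscle actin message at d4 was therefore nearly all of the smooth muscle type.

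Within troponin T, Tnnt1 held 98.7% and 100% at d2 and 14.9% and 11.7% at d4, when Tnnt3 held 67.8% and 69.5% and Tnnt2 17.3% and 18.7%. Within troponin I, Tnni3 held 87.6% and 90.2% at d2, and Tnni1 held 69.0% and 58.8% at d4. Within troponin C, Tnnc2 held 90.1% and 76.5% at d2, and all counts at d4 were from Tnnc1. At d2 these shares rest on few counts, 42 and 38 of Tnnt1, 30 and 21 of Tnni3 and 7 and 10 of Tnnc2.

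Of the 3 alpha-actinins, Actn4 held 71.5% and 71.9% at d2 and 47.8% and 51.7% at d4, and Actn1 rose in share to meet it, from 26.1% and 25.9% to 52.0% and 48.1%. Actn2 never exceeded 2.40%. Among the calponins, Cnn3 held 78.7% and 81.8% at d2 and 67.5% and 67.8% at d4, Cnn2 went from 16.5% and 14.1% to 32.1% and 31.7%, and Cnn1 went from 4.79% and 4.10% to 0.386% and 0.465%. In both families the d2 and d4 shares did not overlap.

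Of the regulatory light chains Myl2, Myl7 and Myl9, Myl9 held 72.7% and 71.1% at d2, and Myl7 held 66.6% and 63.5% at d4. The light chain genes Myl12a and Myl12b, outside the 46, were not among the genes compared. Myl12a stood at 19.0 ± 1.8 RPKM at d2 and 34.8 ± 9.8 at d4. In RPKM, Myl9 went from 18.1 ± 1.0 to 5.14 ± 0.76 and Myl7 from 6.88 ± 0.08 to 9.70 ± 2.30. The 3 nonmuscle heavy chains varied little in share apart from Myh14, with Myh10 at 59.7% to 63.2% and Myh9 at 34.7% to 39.1% over the 4 libraries. Tropomyosin shares depend on the length used: Tpm4 held 58.9% at d2 and 67.4% at d4 by the union of exons but 39.2% and 48.0% by the longest transcript, where Tpm3 came to 38.4% and 26.0%.

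Several of these genes lie next to each other. On chromosome 1 of GRCm38, Csrp1 (chr1:135720061-135752232), Tnni1 (chr1:135779434-135810989) and Tnnt2 (chr1:135836354-135852260) lie on the plus strand within 132200 bp, and all 3 were higher at d4. The genes between them were lower: Phlda3, which lies between Csrp1 and Tnni1, had 586 and 595 counts at d2 against 251 and 266 at d4 (log2 fold change -1.34, SE 0.23, adjusted p = 0.00435). Lad1, which lies between Tnni1 and Tnnt2, had 293 and 182 counts at d2 against 46 and 52 at d4 (log2 fold change -2.45, SE 0.35, adjusted p = 0.00186). The contractile genes of this interval rose with genes that fell in between.

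**Figure D3:**
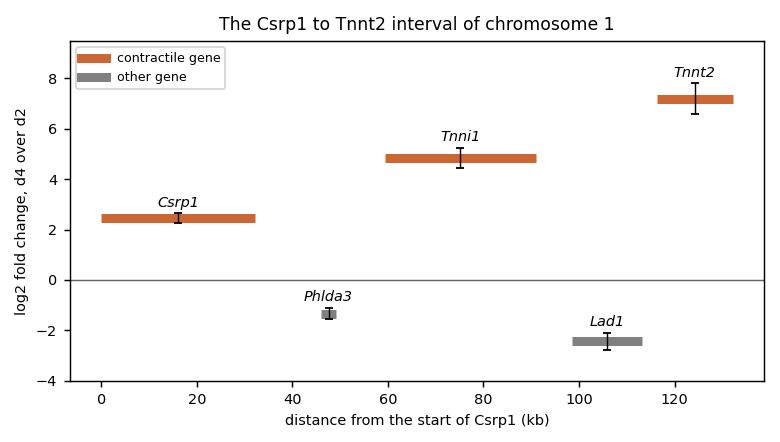
Log2 fold change from d2 to d4, with standard errors, of the 5 genes from Csrp1 to Tnnt2 on chromosome 1, against distance from the start of Csrp1 in kb; bar width is gene length. The 3 contractile genes (orange) lie above 0 and Phlda3 and Lad1 (grey) below.

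On chromosome 7, Tnni2 and Tnnt3 lie within 74202 bp around Lsp1, a leukocyte actin-binding protein gene. Lsp1 had 11 and 4 counts at d2 against 147 and 267 at d4 (log2 fold change 4.55, SE 0.46, adjusted p = 0.000433). Tnnt3 and Lsp1 were therefore both higher, while Tnni2 stayed at no more than 4 counts in any library. The other troponin pair of this chromosome, Tnnt1 and Tnni3, lies within 19660 bp, and neither passed. On chromosome 14, Myh6 and Myh7 lie within 52706 bp, and the antisense gene Mhrt, which overlaps Myh7, had 0 counts in all libraries.

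Contractile genes outside the 46 were counted by list. Of 39 other sarcomere genes, 17 were tested, with 5 higher and 5 lower and a median log2 fold change of 0.37. Myh3, the embryonic myosin heavy chain gene, had 43 and 50 counts at d2 against 1 and 1 at d4 (ratio of normalised counts 0.0190, counting interval 0.00226 to 0.0704, adjusted p = 0.000295). Tmod1, which caps the slow ends of sarcomeric actin filaments, had 1 and 0 counts at d2 against 116 and 95 at d4 (ratio 186, interval 33.0 to 7381, adjusted p = 0.000426). The days were far apart in both genes.

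Mybpc2, the fast skeletal myosin-binding protein C gene, had 29 and 27 counts at d2 against 0 and 2 at d4 (ratio 0.0315, interval 0.00372 to 0.119, adjusted p = 0.00182). Flnc, a filamin gene of the Z-disc, had 692 and 497 counts at d2 against 1637 and 2236 at d4 (log2 fold change 1.52, SE 0.25, adjusted p = 0.00322). The list was split as evenly as the 14 striated genes tested above.

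Of 22 other calcium handling genes, 17 were tested, with 7 higher and 4 lower (median log2 fold change 0.36). Cacna1c, the pore of the L-type calcium channel of heart and smooth muscle, had 8 and 4 counts at d2 against 112 and 154 at d4 (log2 fold change 4.26, SE 0.41, adjusted p = 0.000338). Ryr3 went against Ryr2, with 40 and 60 counts at d2 against 0 and 0 at d4, at least 18.2-fold lower (adjusted p = 0.000646). Both Cacna1c and Ryr3 had days that did not overlap. Asph had 595 and 666 counts at d2 against 2140 and 3771 at d4 (log2 fold change 2.02, SE 0.21, adjusted p = 0.00045), and the inositol trisphosphate receptor gene Itpr2 had 28 and 22 at d2 against 127 and 178 at d4 (log2 fold change 2.42, SE 0.30, adjusted p = 0.001).

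Of 18 other smooth muscle contractile genes, 17 were tested, with 9 higher and 2 lower (median log2 fold change 1.32). Pdlim3, an actinin-associated LIM protein gene, had 69 and 56 counts at d2 against 590 and 888 at d4 (log2 fold change 3.37, SE 0.25, adjusted p = 0.000137). Tgfb1i1, a focal adhesion protein gene of smooth muscle, had 32 and 18 counts at d2 against 486 and 456 at d4 (log2 fold change 4.09, SE 0.40, adjusted p = 0.000366). Both were higher, like most of their list.

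Smtnl2, a smoothelin-like gene, had 224 and 218 counts at d2 against 1105 and 1127 at d4 (log2 fold change 2.20, SE 0.25, adjusted p = 0.000665). Synpo2, an actin-bundling protein gene of muscle, had 74 and 86 counts at d2 against 4 and 9 at d4 (log2 fold change -3.79, SE 0.38, adjusted p = 0.0004). Synpo2 was with Synm an exception in its list.

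Of 38 other nonmuscle actomyosin genes, all were tested, with 3 higher and 1 lower and a median log2 fold change of 0.18. By edgeR 13 of the 38 had an unadjusted p under 0.05, against 7044 of all 14932 genes tested. Rhob, a small GTPase gene of actin regulation, had 117 and 109 counts at d2 against 625 and 811 at d4 (log2 fold change 2.49, SE 0.22, adjusted p = 0.00026). Ezr, which links actin to the membrane of epithelial cells, had 3453 and 3120 counts at d2 against 1056 and 1628 at d4 (log2 fold change -1.49, SE 0.20, adjusted p = 0.00139). Most of this list did not pass, as with the nonmuscle genes among the 46 and with all genes tested, of which 24.3% passed.

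The adhesion gene Tln1 had 1249 and 956 counts at d2 against 2629 and 3407 at d4 (log2 fold change 1.28, SE 0.23, adjusted p = 0.0052). Of SRF and its cofactors, Myocd, which encodes myocardin, had 6 and 5 counts at d2 against 98 and 104 at d4 (log2 fold change 4.02, SE 0.40, adjusted p = 0.000388). Srf itself had 591 and 424 counts at d2 against 462 and 647 at d4 (log2 fold change -0.06, SE 0.25, adjusted p = 0.868), and Mrtfa and Mrtfb did not pass either (log2 fold changes 0.46, SE 0.37, and 0.36, SE 0.23). Of the 4 genes of this system, myocardin alone passed.

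**Figure D4:**
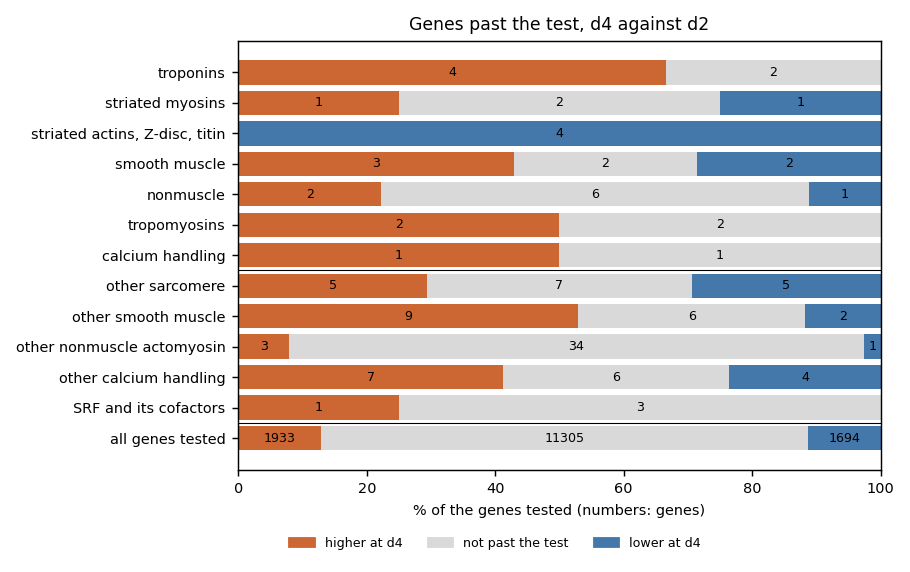
Percent of the genes tested that were higher at d4 (orange), did not pass (grey) or were lower (blue) at an adjusted p under 0.01, with the number of genes printed, for the classes of the 46, the lists outside them and all genes tested. Troponins have no lower gene and the striated actin, Z-disc and titin genes no higher one, and 34 of the 38 other nonmuscle actomyosin genes tested did not pass.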

How the data were processed

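Libraries were strand-specific and read as pairs of 75 bp. By the study's methods the authors trimmed reads with cutadapt 2.9, aligned them to mm10/GRCm38 with STAR 2.6.0a and counted them per gene and strand with Rsubread 2.0.1, leaving out reads that mapped or overlapped more than once. The deposited values are raw whole-number counts, with no filter or normalization. Whether replicate numbers link the days is not stated.

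Symbols came from a GENCODE annotation of GRCm38 (55141 of 55487 identifiers). The filter kept genes whose counts on either day exceeded 0.5 CPM in a one-sided proportion test (adjusted p under 0.05). The test was edgeR 4.0.16 in R 4.3.3 (TMM factors, quasi-likelihood, two-sided, day as the only term), adjusted over the 14932 genes kept and called under 0.01. An exact permutation test of 2 against 2 libraries cannot go below p = 0.333. DESeq2 1.42.0, limma 3.58.1 voom, other factors, filters and thresholds, a replicate block and leaving out each library were alternatives. Zero days use a floor of 3 counts per library, and days with 1 to 3 counts an exact binomial interval; floors and intervals cover counting error only. RPKM uses the union of annotated exons. Scripts were tested on simulated counts.

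The contractile genes and all lists were chosen with earlier results of these data known. All 46 are accounted for; those that passed or reached 10 CPM have full values, and outside lists are named by their 4 smallest adjusted p, apart from a gene that is not reported here.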

Additional observations from a re-analysis of the deposited data

How the results depend on the processing

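The 21 contractile genes called kept their direction with DESeq2 size factors, upper-quartile factors, no filter on low counts, filterByExpr, DESeq2, limma voom, the replicate block and each left-out library. All stayed past an adjusted p of 0.01 in the first 7 of these except Acta2 with voom. Upper-quartile factors moved the median over all genes, on the log2 scale, from -0.03 to -0.11.

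Calls moved as follows. Higher smooth muscle members were 5 in place of 3 without the filter, at an adjusted p under 0.05 and under the replicate block. Genes called among all tested, higher and lower, were 1933 and 1694 in the main test, 2901 and 2873 without the filter, 2991 and 2679 under 0.05, and 3478 and 3496 under the block. Other nonmuscle actomyosin genes, 3 higher and 1 lower in the main test, were 7 and 2 without the filter, 5 and 2 with DESeq2, 7 and 3 under 0.05, 9 and 4 under the block, and 2 lower with upper-quartile factors. By the longest transcript, Tpm1 held 18.4% and 23.6% of the tropomyosins at d2 and d4 in place of 12.8% and 15.3%, Tpm3 38.4% and 26.0% in place of 23.5% and 14.8%, and Tpm4 39.2% and 48.0%. The cause of these moves was not tested.

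Leaving out 1 library, by edgeR or DESeq2, gave 0 to 16 members higher and 0 to 8 lower, 0 to 5 higher and 0 to 5 lower of the striated, 0 to 5 and 0 to 2 of the smooth muscle, 0 to 5 and 0 to 1 of the nonmuscle and tropomyosin members, and 0 to 2269 and 0 to 2475 of all genes; the lone library was assumed to vary like the other day. All zeros came from edgeR without d2 replicate 1 or d2 replicate 2, apart from a nonmuscle count of 0 lower with DESeq2 without d2 replicate 1; DESeq2 then called 1049 and 985 genes higher and 730 and 722 lower, against 1248 and 1268 higher without d4 replicate 1 or d4 replicate 2, and in edgeR without a d2 library 6343 and 6012 had an unadjusted p under 0.05. Without d4 replicate 2, Tnnt1 turned to a log2 fold change of 0.027 (edgeR) and 0.015 (DESeq2), and without d2 replicate 2, Tpm2 to -0.031; neither passed in any fit.

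The replicate number as a block raised higher nonmuscle and tropomyosin members from 4 to 8 and lower other calcium handling genes from 4 to 7, and Tagln, Mylk, Actn1, Myh9, Myh10 and Cnn3 then passed. Deviations of same-numbered libraries from their day's mean correlated at 0.48 across 14932 genes, over 2 pairs only. By the study's methods the replicates came from independent differentiation experiments, but whether a number marks the same experiment at d2 and d4 is not stated. Genes not significantly above 0.5 CPM on either day were left out by the filter, such as Tnnc2 at 0.572 and 0.759 CPM at d2. Without the filter, 44 of the 46 contractile genes were tested.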
